A study of Homo sapiens with 6 samples.

Results

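Diacylglycerol kinases were followed in HMC3 cells, an immortalized human microglial cell line, by taking every transcript row whose gene name was DGKA, DGKB, DGKD, DGKE, DGKG, DGKH, DGKI, DGKQ or DGKZ and summing the rows per gene. This gave 71 of 153848 transcript rows and 8 of 31768 genes. DGKB was not analysed here. Irradiated cultures had received 15 Gy of 6 MV X-rays and control cultures 0 Gy, and both were collected after 24 h, with 3 independent cultures in each group. Full-length cDNA of polyadenylated RNA was amplified by PCR and read on the Oxford Nanopore platform. The model was limited to a single cell line, dose and time point. The family was selected on earlier results of these data in which DGKA differed between irradiated and control cells, so the values of DGKA are a description with no test, and tests are given only for the other members.

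Diacylglycerol kinases use ATP to phosphorylate diacylglycerol, a membrane second messenger made by phospholipase C, into phosphatidic acid. The reaction ends signalling through proteins that bind diacylglycerol, such as protein kinases C and RasGRP exchange factors, and starts signalling through proteins that bind phosphatidic acid. In microglia, the phospholipase PLCG2 acts downstream of the surface receptor TREM2, and in T cells DGKA and DGKZ are known to limit signalling from the antigen receptor. The members fall into structural types. DGKA, DGKB and DGKG are type I enzymes with calcium-binding EF hands. DGKD and DGKH are type II enzymes with a pleckstrin homology domain. DGKE is the type III enzyme and prefers diacylglycerol that carries arachidonate. DGKZ and DGKI are type IV enzymes with ankyrin repeats, and DGKQ is the type V enzyme.

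All of these enzymes share a catalytic domain with a glycine-rich stretch, and its coding sequence was compared between members. This short stretch does not describe whole transcripts, and the assignment of reads among members was not tested. The lines below give 48 coding bases of a coding transcript of each member, read from GENCODE 29 transcripts, 5′ to 3′, with the 12 bases that encode Gly-Gly-Asp-Gly in capitals.
DGKA: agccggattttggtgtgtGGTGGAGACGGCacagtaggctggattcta
DGKG: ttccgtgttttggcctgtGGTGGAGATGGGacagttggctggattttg
DGKD: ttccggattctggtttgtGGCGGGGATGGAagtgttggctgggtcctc
DGKH: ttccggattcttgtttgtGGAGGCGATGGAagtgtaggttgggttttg
DGKE: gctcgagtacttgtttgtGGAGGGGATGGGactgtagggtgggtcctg
DGKZ: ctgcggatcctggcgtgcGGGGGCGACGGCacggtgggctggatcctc
DGKI: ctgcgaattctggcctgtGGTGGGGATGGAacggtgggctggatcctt
DGKQ: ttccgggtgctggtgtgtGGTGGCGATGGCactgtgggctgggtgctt
The type II pair DGKD and DGKH was identical at 40 of the 48 bases, the type IV pair DGKI and DGKZ at 39 and the type I pair DGKA and DGKG at 37. DGKE and DGKZ shared the fewest, 29 of 48. Even the closest pair differed at several bases in this window.

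Library totals lay between 6292049 and 6909420 counts in irradiated cultures and between 4870897 and 9082409 in control cultures. The member genes together took 720 to 917 counts in irradiated libraries and 201 to 476 in control libraries. From here on levels are TMM-normalised CPM, counts scaled to an equal library size. The p53 targets CDKN1A, MDM2 and FDXR, given as a check of the treatment, averaged 626 ± 9.57, 82.4 ± 8.49 and 78.3 ± 0.349 CPM in irradiated cells and 183 ± 16.4, 26.2 ± 6.66 and 15.4 ± 4.10 CPM in control cells (SD, n = 3 each). Of 14 microglial markers, 7 could be analysed, and CD68 and TREM2 were the ones that averaged at least 1 CPM over the 6 libraries. AIF1, CSF1R, PTPRC, SPI1 and GPR34 stayed under 1 CPM in both groups, while CX3CR1, P2RY12, TMEM119, ITGAM, C1QA, C1QB and TYROBP were not analysed here. The summed microglial markers ranged from 33.2 to 38.7 CPM in irradiated and from 24.3 to 35.6 CPM in control libraries. CD68 alone averaged 33.5 CPM in irradiated and 28.6 CPM in control cells. The 2 T cell markers analysed, CD4 and CD8A, summed to 0.15 to 2.05 CPM in irradiated and 0.371 to 1.07 CPM in control libraries. The fibroblast and pericyte markers summed to 277 to 333 CPM in irradiated and 315 to 338 CPM in control libraries. Most of this was COL1A1, which averaged 201 CPM in irradiated and 185 CPM in control cells, and THY1, at 86.0 and 133 CPM. PDGFRA and DCN averaged under 1 CPM in both groups, and COL3A1 and LUM were not analysed here. Within that list ACTA2 rose by 1.80 (adjusted p = 0.00081) and COL1A2 by 1.35 (adjusted p = 0.00636), THY1 fell by 0.63 (adjusted p = 0.0037), and COL1A1 (0.12, adjusted p = 0.515) and PDGFRB (-0.05, adjusted p = 0.958) did not pass, all as log2 fold changes by edgeR. Neuronal markers summed to 21.0 to 30.2 CPM in irradiated and 28.3 to 33.7 CPM in control libraries. Most of this was SNAP25, which averaged 19.1 CPM in irradiated and 24.5 CPM in control cells, and GAD1, at 4.7 and 5.8 CPM. RBFOX3, SYT1 and SLC17A7 averaged under 1 CPM in both groups, and STMN2 was not analysed here. Oligodendrocyte and astrocyte markers summed to 1.02 to 4.64 CPM in irradiated and 1.22 to 1.73 CPM in control libraries. The part of any of these in the results below was not tested.

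DGKA (chr12:55927319-55954027, plus strand, GRCh38 as annotated by GENCODE 29, as are all gene positions here) was the most abundant member in every library and stood higher in irradiated cells. It had 558, 467 and 582 counts in irradiated libraries and 104, 200 and 286 counts in control libraries. After normalization DGKA had 74.7, 69.8 and 74.4 CPM in irradiated cells and 26.1, 30.6 and 35.3 CPM in control cells. The irradiated cultures were close to each other, and none overlapped the controls. The means were 73.0 ± 2.71 CPM in irradiated and 30.7 ± 4.63 CPM in control cells (SD, n = 3 each), a ratio of 2.38, and the fitted log2 fold change was 1.24 (SE 0.153). PYM1 overlaps DGKA on the opposite strand over 5300 bases, and its counts were 65, 90 and 69 in irradiated and 69, 125 and 111 in control libraries. In bulk RNA, more cells with a transcript and more of it per cell cannot be told apart.

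DGKA supplied 60.9%, 64.9% and 69.1% of all diacylglycerol kinase CPM in irradiated cells and 51.7%, 59.0% and 60.1% in control cells. These shares rest on sums over the rows of each gene, and reads may have been counted on more than 1 row. The highest single transcript of DGKA had 95, 85 and 100 counts in irradiated and 22, 41 and 54 in control libraries. That of DGKZ had 46, 36 and 28 counts in irradiated and 14, 18 and 30 in control libraries. The summed family reached 123, 108 and 108 CPM in irradiated cells and 50.4, 51.9 and 58.8 CPM in control cells. Without DGKA the other members summed to 48.0, 37.8 and 33.2 CPM in irradiated cells and 24.3, 21.3 and 23.5 CPM in control cells. Of these sums, DGKZ alone gave 29.7, 22.4 and 16.5 CPM in irradiated and 11.0, 9.03 and 10.01 CPM in control cells. The sums did not overlap between the groups, and 21.3% of tested genes were likewise higher without overlap. The plot of CPM per library shows the members side by side.

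**Figure D1:**
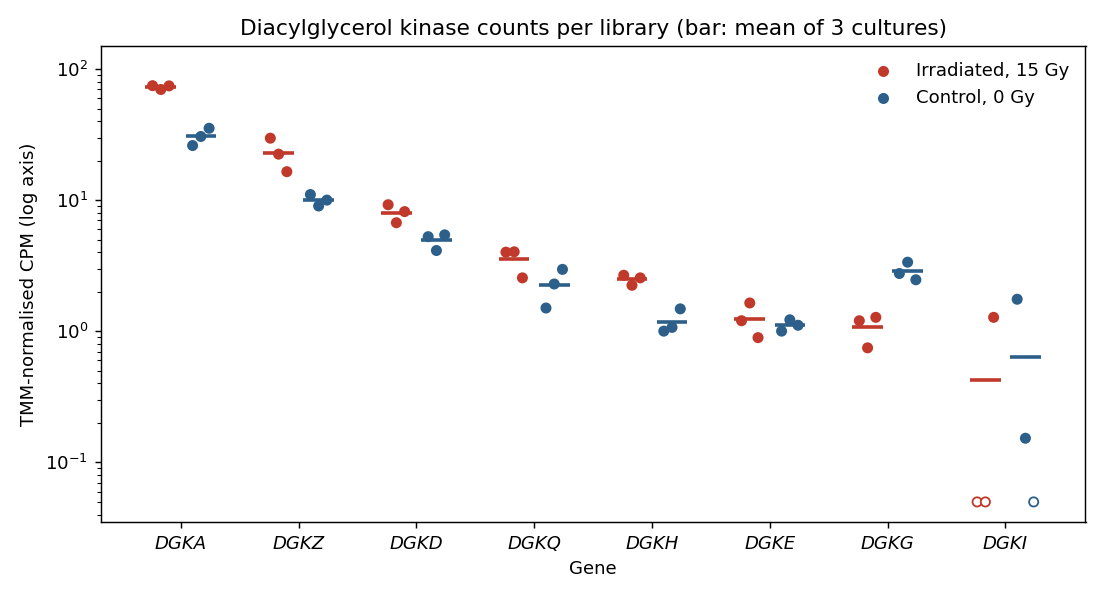
TMM-normalised CPM (vertical log axis) of the 8 diacylglycerol kinases in each of 3 irradiated (red, left) and 3 control libraries (blue, right), with bars for the means of 3 cultures. Open circles at the foot of the axis are libraries with 0 counts. DGKA, DGKZ, DGKD and DGKH were higher in all irradiated libraries than in any control library, and DGKG was lower in all.

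Among the members that were tested, DGKZ rose. DGKZ (chr11:46332905-46380554, plus strand) is a type IV kinase that can reach the nucleus and is, with DGKA, the member best known from lymphocytes. It had 222, 150 and 129 counts in irradiated libraries and 44, 59 and 81 counts in control libraries, which became 29.7, 22.4 and 16.5 CPM in irradiated cells and 11.0, 9.03 and 10.01 CPM in control cells. The irradiated cultures were spread more widely than the controls, and the groups did not overlap. The mean was 22.9 ± 6.62 CPM in irradiated and 10.02 ± 1.01 CPM in control cells (SD, n = 3 each). The log2 fold change was 1.19 (SE 0.245), and edgeR's quasi-likelihood test gave an adjusted p of 0.00287. When each gene was represented by its single highest transcript count, the log2 fold change of DGKZ was 0.71 (SE 0.265), with an adjusted p of 0.0275 by edgeR. Without irradiated replicate 1 it was 0.95 (adjusted p = 0.0255, edgeR), so DGKZ remained called but its fold change was no longer over 1 on the log2 scale.

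The type II pair, DGKD and DGKH, did not pass the test although irradiated and control libraries did not overlap. DGKD (chr2:233354507-233472104, plus strand) had 69, 45 and 64 counts in irradiated and 21, 27 and 44 counts in control libraries. Its level was 9.23, 6.73 and 8.18 CPM in irradiated cells and 5.27, 4.13 and 5.44 CPM in control cells, with means of 8.05 ± 1.26 and 4.95 ± 0.711 CPM (SD, n = 3 each). The log2 fold change was 0.73 (SE 0.293, 95% interval 0.16 to 1.30), with an adjusted p of 0.0771 by edgeR. The call of DGKD turned on the processing, since it passed with library totals alone (log2 fold change 1.18, adjusted p = 0.0135) and with the highest transcript in place of the sum (0.90, adjusted p = 0.0320), both by edgeR. With an offset for transcript length its log2 fold change was 0.43 (adjusted p = 0.308, edgeR).

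DGKH (chr13:42040036-42256578, plus strand) was a lowly expressed member, with 20, 15 and 20 counts in irradiated and 4, 7 and 12 counts in control libraries. Its level was 2.68, 2.24 and 2.56 CPM in irradiated cells and 1.00, 1.07 and 1.48 CPM in control cells. The log2 fold change was 0.97 (SE 0.587, 95% interval -0.18 to 2.12) and the adjusted p 0.233 by edgeR. DGKH reached the minimum of 10 counts in 3 irradiated and 1 control libraries. The interval of DGKH spans no change as well as a difference larger than that of DGKZ, so no difference could be resolved at this depth.

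DGKQ (chr4:958887-986895, minus strand), the type V kinase, had 30, 27 and 20 counts in irradiated and 6, 15 and 24 counts in control libraries. Its level was 4.01, 4.04 and 2.56 CPM in irradiated cells and 1.51, 2.30 and 2.97 CPM in control cells, and irradiated replicate 3 lay inside the control range. The log2 fold change was 0.61 (SE 0.444, 95% interval -0.26 to 1.48), with an adjusted p of 0.327 by edgeR. DGKQ overlaps SLC26A1 on the same strand over 7823 bases, and SLC26A1 itself had 0 to 7 counts in irradiated and 0 to 4 counts in control libraries.

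Read against all genes, 1 of the 4 tested members other than DGKA rose, and 11.6% of the 11118 genes tested were called higher. None of the 4 fell, against 14.1% of genes called lower, and none of the 4 was lower at an unadjusted p under 0.05 by edgeR. DESeq2 gave the same call for DGKZ and none for a fall. DGKZ was also the 1 member of the 4 called with an absolute log2 fold change over 1, as were 5.70% of genes. DGKZ, DGKD and DGKH, 3 of the 4, did not overlap between groups in the higher direction, and neither did 21.3% of all tested genes. DGKH passed the count filter through the irradiated libraries, in which it was high, so nothing is drawn from its part in this count. In the lower direction 0 of the 4 were without overlap, against 21.3% of tested genes. DGKG, which was lower without overlap, did not enter the main test and is not among the 4.

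DGKG, DGKE and DGKI did not enter the main test. DGKE and DGKI missed the minimum of 10 counts in 3 libraries, and DGKG passed it but held a single transcript with at least 3 counts. DGKG (chr3:186105668-186362237, minus strand), the other type I kinase measured, stood lower in irradiated cells. It had 9, 5 and 10 counts in irradiated and 11, 22 and 20 counts in control libraries, which became 1.20, 0.748 and 1.28 CPM in irradiated cells and 2.76, 3.37 and 2.47 CPM in control cells. The groups of DGKG did not overlap. With no filter on low counts the log2 fold change was -1.38 (SE 0.562), with an adjusted p of 0.109 by edgeR. The filterByExpr filter gave -1.40 (adjusted p = 0.0401, edgeR), where 14.1% of 12572 genes were called lower. DGKG reached the cut of that filter in 3 control libraries and in 0 irradiated libraries, so it entered that fit through the group in which it was high, and nothing is drawn from this call.

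Most DGKG counts, 64 of 77, sat on ENST00000482566, an annotated retained-intron transcript of 1083 bases inside the gene at chr3:186279134-186281259 on the minus strand (GRCh38). It had 8, 5 and 7 counts in irradiated and 10, 14 and 20 counts in control libraries. The coding transcripts of DGKG held 11.1%, 0% and 30.0% of its counts in irradiated and 9.09%, 27.3% and 0% in control libraries, and ENST00000480809, another retained-intron row, held 2 counts in control replicate 2. The DGKG values therefore describe mainly this internal transcript. ETV5 overlaps DGKG on the same strand over 4651 bases, but not at ENST00000482566.

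DGKE (chr17:56834099-56869567, plus strand) had 9, 11 and 7 counts in irradiated and 4, 8 and 9 counts in control libraries, or 1.20, 1.65 and 0.895 CPM in irradiated cells and 1.00, 1.22 and 1.11 CPM in control cells. These ranges overlap. TRIM25 and C17orf67 lie on the opposite strand of DGKE, and no source used here says whether the counting took account of strand. DGKI (chr7:137381037-137847092, minus strand) was seen in irradiated replicate 3 with 10 counts and in control replicates 1 and 2 with 7 and 1 counts, and was at 0 in the others. A count of 0 allows up to 3 counts, or 0.401 and 0.449 CPM in irradiated replicates 1 and 2 and 0.371 CPM in control replicate 3, counting error only. No difference in DGKI was detectable at this depth.

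To set levels of different members side by side, CPM were also divided by the count-weighted transcript length of each gene in kilobases. Whether counts of these full-length cDNA reads scale with transcript length was not tested. In irradiated cells the order of CPM per kilobase was DGKA at 22.1, DGKZ at 6.28, DGKD at 1.38, DGKQ at 0.798, DGKG at 0.638, DGKH at 0.257, DGKE at 0.191 and DGKI at 0.0719. In control cells it was DGKA at 9.30, DGKZ at 2.75, DGKG at 1.70, DGKD at 0.847, DGKQ at 0.509, DGKE at 0.171, DGKH at 0.123 and DGKI at 0.107. DGKG ranked below DGKQ in irradiated cells and above DGKD in control cells, and this change of rank was not tested. For counts summed over rows, its place above DGKD came with the division by length. Before it, control cells averaged 2.87 CPM for DGKG and 4.95 CPM for DGKD. The DGKD sum holds several rows of nearly equal count. By the highest single transcript, with no division, control libraries had 10, 14 and 20 counts for DGKG and 7, 9 and 13 for DGKD. The order of members therefore also depends on how the rows of a gene are combined. In irradiated cells DGKQ and DGKG, DGKH and DGKE, and DGKE and DGKI overlapped between neighbours over the 3 libraries. In control cells DGKH and DGKI overlapped, and the other neighbours did not.

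Transcript length moved with the comparison across the whole data set. Genes were split into 5 equal bins by transcript length, and the median log2 fold change was -0.37 in the bin of the shortest, up to 1521 bases, and 0.33 in the bin of the longest, from 4447 bases. All 5 tested kinases are long, with 3326 bases for DGKA, 3684 for DGKZ, 4499 for DGKQ, 5938 for DGKD and 10754 for DGKH, weighted by counts over the kept transcripts. The median of the bin from 3170 to 4442 bases, which holds DGKA and DGKZ, was 0.26, and the values of both lay above it. With the trend on length taken out, the log2 fold change was 1.05 (SE 0.139) for DGKA and 0.95 (SE 0.24, adjusted p = 0.0134, edgeR) for DGKZ. DGKH had 0.61 and DGKQ 0.35 with this offset. DGKG, whose transcripts average 1688 bases, falls in the range from 1522 to 2267 bases, where the median was -0.10. The plot of fold change against length places the members on all genes.

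**Figure D2:**
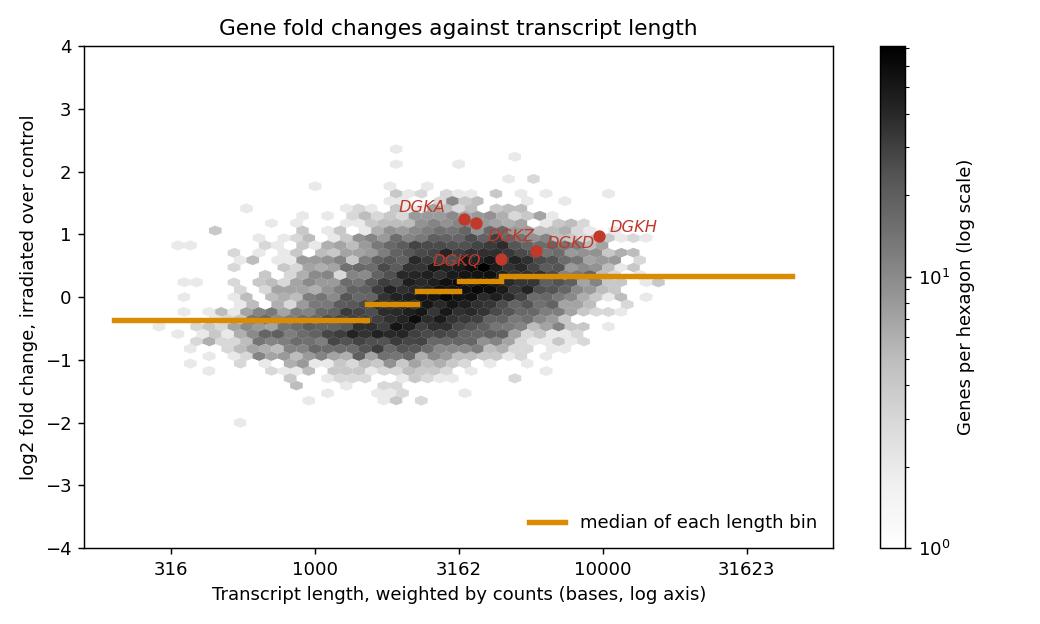
Log2 fold change, irradiated over control (vertical axis), against count-weighted transcript length in bases (horizontal log axis) for tested genes with an annotated length, as hexagons shaded by gene number. Orange bars are the medians of 5 length bins, from -0.37 to 0.33, and the 5 labelled kinases (red) lie above the bar of their own bin.

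**Figure D3:**
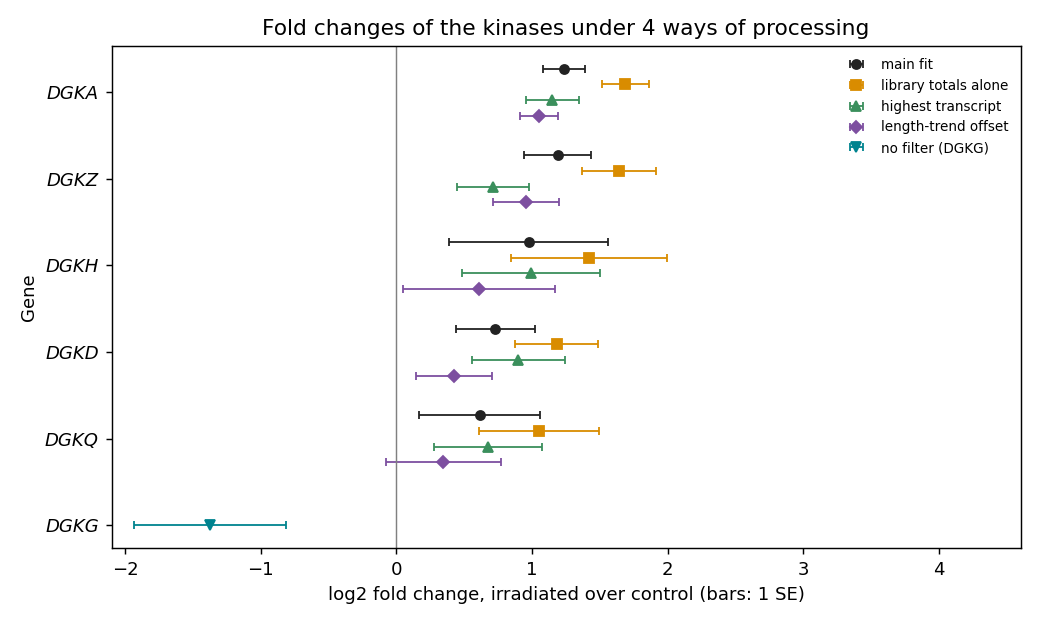
Log2 fold change, irradiated over control, with 1 SE, for 5 tested kinases under 4 ways of processing, and for DGKG with no filter on low counts. DGKA and DGKZ kept positive values under all 4, from 1.05 to 1.69 for DGKA and from 0.71 to 1.64 for DGKZ, while DGKG had -1.38.

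At isoform level DGKA was spread over 6 transcripts of nearly equal count, which held 95.3% of its 2197 counts. They are the coding transcripts ENST00000394147, ENST00000551156 and ENST00000331886, the retained-intron transcripts ENST00000551296 and ENST00000552478 and ENST00000402956, annotated for nonsense-mediated decay. ENST00000394147 was the highest, with 12.7, 12.7 and 12.8 CPM in irradiated cells and 5.52, 6.27 and 6.67 CPM in control cells. ENST00000552478 was the lowest of the 6, with 10.8, 8.82 and 9.97 CPM in irradiated cells and 2.26, 3.52 and 4.33 CPM in control cells. For each of these the irradiated libraries were all above the control libraries.

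The shares of DGKA isoforms shifted little. ENST00000394147 made up 17.7% ± 0.611 of the kept DGKA counts in irradiated cells and 20.4% ± 1.17 in control cells, a difference in isoform fraction (dIF) of -2.72 percentage points. ENST00000552478 made up 13.7% ± 0.968 in irradiated and 10.9% ± 1.92 in control cells (SD, n = 3 each), a dIF of 2.76 points. By class, coding transcripts held 50.5%, 51.2% and 50.7% of DGKA counts in irradiated libraries and 59.6%, 57.0% and 54.2% in control libraries. Retained-intron transcripts held 33.0%, 33.4% and 33.7% in irradiated and 26.9%, 29.5% and 30.4% in control libraries. The classes did not overlap between groups, and as part of the DGKA contrast they carry no test.

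Most of these 6 rows share long stretches at their 3′ ends, where reverse transcription from the poly(A) tail starts. From the 3′ end, ENST00000394147 shares 2542 bases with ENST00000551156, 2536 with ENST00000331886, 1663 with ENST00000551296 and with ENST00000402956, and 337 with ENST00000552478. At least 3 transcripts of a gene had exactly the same count in 17 of 31 pairs of a member gene and a library (54.8%), and in 38.8% of such pairs over all genes. No source used here says whether reads that match several transcripts were divided among them or counted on each. The isoform rows of a member are therefore not independent measurements.

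DGKZ showed the widest shift in shares. Its most abundant row was ENST00000527211, a retained-intron transcript of 3679 bases at the 3′ end of the gene (chr11:46376520-46380551, GRCh38). It made up 22.9% ± 1.74 of kept DGKZ counts in irradiated cells and 34.1% ± 4.03 in control cells (SD, n = 3 each), a dIF of -11.2 percentage points with no overlap between groups. The usage test did not call it, with an adjusted p of 0.305 by edgeR's diffSpliceDGE. Its own level was 6.16, 5.38 and 3.58 CPM in irradiated cells and 3.51, 2.75 and 3.71 CPM in control cells, with overlapping ranges (adjusted p = 0.160, edgeR). All retained-intron rows of DGKZ together held 46.4%, 50.7% and 45.7% of its counts in irradiated and 52.3%, 55.9% and 61.7% in control libraries.

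The other main DGKZ rows rose. ENST00000524984, annotated for nonsense-mediated decay, had 3.61, 2.54 and 2.30 CPM in irradiated cells and 1.00, 0.765 and 0.742 CPM in control cells, a log2 fold change of 1.73 (SE 0.419, adjusted p = 0.000588, edgeR). The coding transcripts ENST00000456247, ENST00000343674 and ENST00000454345 rose by 1.36, 1.28 and 1.42 on the log2 scale, and the retained-intron transcripts ENST00000528173 and ENST00000534802 by 1.28 and 1.33, with adjusted p from 0.00502 to 0.0122 (edgeR). The rows ENST00000456247 and ENST00000527211 share 821 bases at their 3′ ends.

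Over the 19 kept transcripts of the members other than DGKA, 6 rose, all of DGKZ, where 8.54% of 74843 transcripts were called higher. None fell, against 10.7% called lower, and 10 of the 19 had an unadjusted p under 0.05 by edgeR. The count of 6 was 1 with DESeq2 and 1 without irradiated replicate 1. None of 19 isoforms changed usage, where 0.410% of all isoforms did. By edgeR 2 had an unadjusted p under 0.05, limma's diffSplice called 0, and ENST00000527211 was the 1 isoform with a dIF of at least 10 points. Both DGKQ rows among the 19 held 50% in every library, so their usage could not change. With so small a share over all isoforms, nothing is drawn from the absence of a call. The plot of isoform shares shows both genes.

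**Figure D4:**
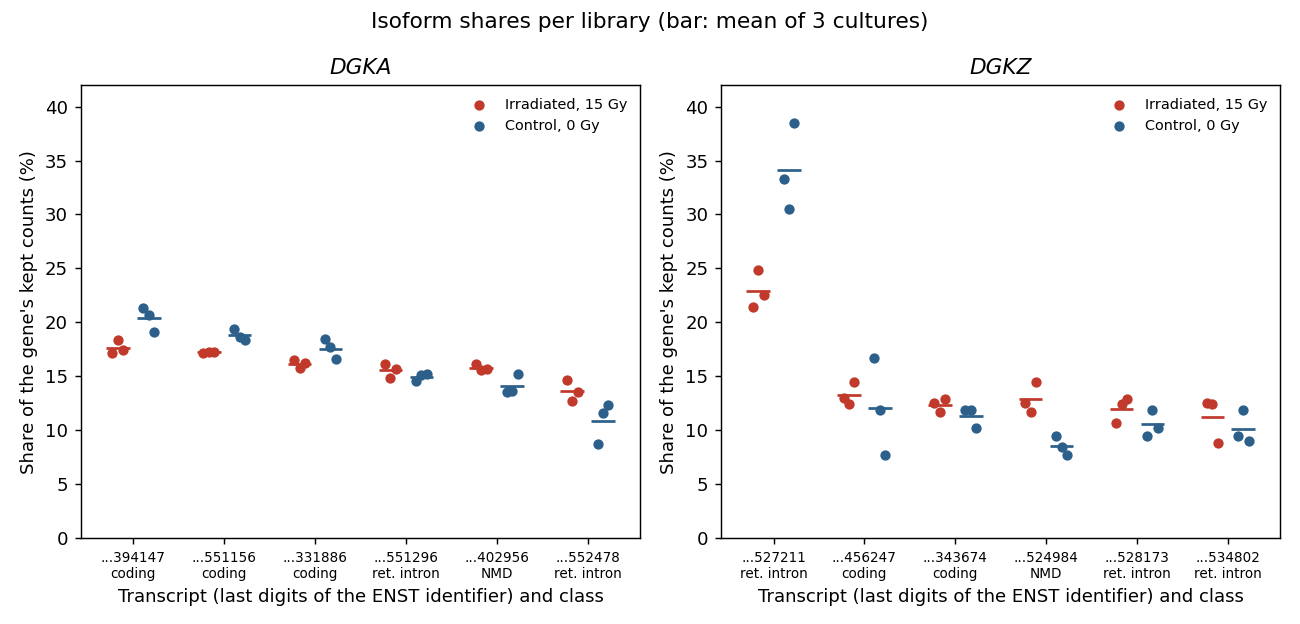
Share of the gene's kept counts (vertical axis, %) for the 6 most abundant transcripts of DGKA (left) and DGKZ (right), in 3 irradiated (red) and 3 control libraries (blue), with bars for the means. DGKA shares lie within 3 points between groups, while the DGKZ transcript ENST00000527211 averages 22.9% in irradiated and 34.1% in control cells.

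The remaining members gave little isoform resolution. The DGKD transcripts ENST00000264057 and ENST00000409813 had the same count in every library and share 6125 bases at the 3′ end, and ENST00000430834 followed them closely, at 33.0% ± 0.621 of kept DGKD counts in irradiated and 32.0% ± 2.35 in control cells (SD, n = 3 each). The DGKQ transcripts ENST00000273814 and ENST00000509465 also had equal counts in every library. DGKH was divided between ENST00000337343, at 48.9% ± 1.92 in irradiated and 52.4% ± 4.12 in control cells, and ENST00000261491 (SD, n = 3 each). DGKE was carried mainly by its coding transcript ENST00000284061, at 0.877 CPM in irradiated and 0.577 CPM in control cells.

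The promoter windows of the 2 members that stood out are shown, each from 250 bases before to 50 after a RefSeq start site (GRCh38.p14), for sites where a transcript with at least 10 counts over the 6 libraries begins. The DGKA window is chr12:55931813-55932112 on the plus strand, and the counted transcripts ENST00000394147, ENST00000551156 and ENST00000402956 start in it. The DGKZ window is chr11:46332676-46332975 on the plus strand, where ENST00000343674 starts. Matches to GGGCGG on either strand are in capitals.
DGKA: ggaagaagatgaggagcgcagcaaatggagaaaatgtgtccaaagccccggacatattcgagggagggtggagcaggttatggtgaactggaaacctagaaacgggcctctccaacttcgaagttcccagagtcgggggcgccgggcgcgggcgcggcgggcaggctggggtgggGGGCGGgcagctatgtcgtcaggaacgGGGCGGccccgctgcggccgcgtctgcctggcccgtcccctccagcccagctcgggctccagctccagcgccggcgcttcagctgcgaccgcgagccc
DGKZ: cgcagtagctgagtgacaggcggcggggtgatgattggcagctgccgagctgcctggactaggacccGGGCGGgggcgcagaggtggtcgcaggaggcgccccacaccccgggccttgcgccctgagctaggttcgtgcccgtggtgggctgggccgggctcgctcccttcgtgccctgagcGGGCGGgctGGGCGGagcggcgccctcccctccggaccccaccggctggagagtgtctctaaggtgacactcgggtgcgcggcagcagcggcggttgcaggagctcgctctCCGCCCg
The DGKA window held 2 matches to GGGCGG and the DGKZ window 4, and 44.9% of 34796 promoter windows held at least 1. CCAAT on either strand was matched 0 times in the DGKA window and 1 time in the DGKZ window, against 34.6% of windows. TATAAA on either strand and the p53 decamer consensus were matched in neither, against 11.6% and 6.65% of windows. A DGKZ window that is not shown (chr11:46345017-46345316), where ENST00000532868 starts with 5 counts in all, held 2 matches to the p53 decamer and 0 to the other motifs. ENST00000527911, with 7 counts, starts in the remaining DGKZ window, which held 3 matches to GGGCGG and 0 to the others. ENST00000456247, with 84 counts, ENST00000524984, with 77, and ENST00000454345, with 73, start outside every DGKZ window, at chr11:46347572, chr11:46345437 and chr11:46361595. For DGKA, ENST00000331886, with 358 counts, ENST00000551296, with 336, and ENST00000552478, with 285, start outside every DGKA window. Their starts are at chr12:55930972, chr12:55935336 and chr12:55936147. The shown windows therefore do not cover the starts of these DGKA and DGKZ transcripts. A match is a description of letters and not a binding site.

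The genes around the kinases were read from 6 lists by role, with 63 genes of which 46 were tested. Of these 11 rose (23.9%, against 11.6% of all genes) and 0 fell, or 1 (TAMM41) with RLE factors, with DESeq2, with a replicate block or without control replicate 3, and their median log2 fold change was 0.24, against 0.08 over all genes. With an offset for transcript length 8 of the listed genes rose, where 937 of 10668 genes did, and the part of length was not tested. Among phospholipases C, which make diacylglycerol, 2 of 6 rose in the main fit, and both act at the plasma membrane. PLCB3 had 8.49 ± 0.954 CPM in irradiated and 2.65 ± 1.13 CPM in control cells, and PLCG1 had 50.2 ± 8.70 CPM in irradiated and 28.3 ± 3.07 CPM in control cells (SD, n = 3 each). The log2 fold changes were 1.62 (adjusted p = 0.00345) and 0.82 (adjusted p = 0.0033, edgeR).

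Enzymes that turn phosphatidic acid back into diacylglycerol, the lipins and phospholipid phosphatases, gave 2 of 7 that rose. These were LPIN3, at 5.24 ± 1.21 CPM in irradiated and 1.96 ± 0.561 CPM in control cells, and PLPP2, at 33.1 ± 2.58 CPM in irradiated and 17.0 ± 1.50 CPM in control cells (SD, n = 3 each). Among other makers of phosphatidic acid 3 of 9 rose, the acyltransferases AGPAT1, AGPAT2 and AGPAT3. AGPAT2 rose by 0.99 (adjusted p = 0.00943) and AGPAT3 by 0.68 on the log2 scale (adjusted p = 0.0109, edgeR). Of the other enzymes that consume diacylglycerol, 0 of 7 passed the test in either direction, with 0.32 for DGAT2, which makes triglyceride, and 0.43 for the lipase DAGLA on the log2 scale.

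In the route from phosphatidic acid back to phosphatidylinositol 2 of 7 rose, CDIPT, the phosphatidylinositol synthase, by 0.70 (adjusted p = 0.00896) and PITPNA, a lipid transfer protein, by 0.80 (adjusted p = 0.0242, edgeR). Of the proteins that bind diacylglycerol 2 of 10 rose. PRKCD, a protein kinase C, had 15.7 ± 6.06 CPM in irradiated and 7.42 ± 1.34 CPM in control cells, and PRKD2, a protein kinase D, had 32.5 ± 8.98 CPM in irradiated and 18.9 ± 1.73 CPM in control cells (SD, n = 3 each). Their log2 fold changes were 1.10 (adjusted p = 0.0133) and 0.79 (adjusted p = 0.0154, edgeR). The count of 11 was 7 without irradiated replicate 2.

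**Figure D5:**
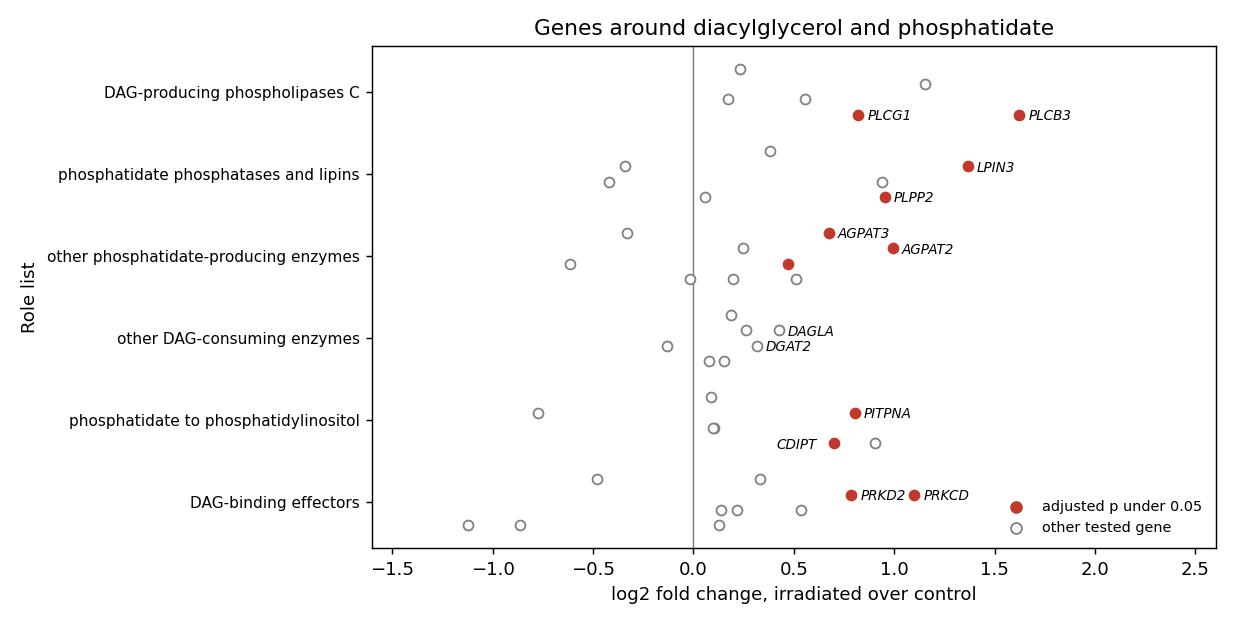
Log2 fold change, irradiated over control (horizontal axis), of the 46 tested genes in 6 role lists (rows; vertical scatter within a row only separates points). Filled points are the 11 genes that rose at an adjusted p under 0.05, and the labels are the 2 genes of smallest adjusted p in each list.

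The genes whose pattern over the 6 libraries was most like that of DGKA were DHX32, PIEZO1, BAIAP3, MED15 and FADS3, out of 6233 tested genes with at least 10 CPM. Likeness was the root mean square difference of centred log2(CPM + 1), which ran from 0.0991 for DHX32 to 0.127 for FADS3. DHX32, a helicase-like protein, averaged 16.0 CPM in irradiated and 5.82 CPM in control cells, and PIEZO1, a mechanosensitive channel, 22.7 CPM in irradiated and 10.1 CPM in control cells. Of the members, DGKH was nearest at 0.282, then DGKZ at 0.303, DGKD at 0.362 and DGKQ at 0.422. These distances describe 6 libraries of 2 groups and carry no test.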

How the data were processed

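The authors sequenced 6 libraries and ran the Epi2me transcriptome workflow, with minimap2 alignment to GRCh38 and Salmon quantification, and deposited whole-number counts per transcript and library, which sum to between 4870897 and 9082409 a library. For these counts, no source used here gives the versions of minimap2 and Salmon, the annotation release, strand use or any collapsing by the molecular identifiers of the kit. All 71 member rows matched GENCODE 29 by transcript identifier, which gave positions, classes and lengths.

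Genes with at least 10 counts in 3 libraries, transcripts with at least 3 counts in 1 library and genes with at least 2 such transcripts were kept, which left 95.6% to 96.4% of counts. Kept counts were tested, irradiated over control, with edgeR 4.0.16 (TMM, robust glmQLFit, glmQLFTest, diffSpliceDGE) in R 4.3.3. P-values were adjusted by Benjamini-Hochberg over every feature tested, with a limit of 0.05. Usage calls also needed an absolute dIF of 0.1. SE is the absolute log2 fold change over the square root of F, and 95% intervals are 1.96 SE either side. CPM in the text are over all rows of a gene. Alternatives used limma 3.58.1, DESeq2 1.42.0, other factors and filters, a replicate block and each library left out. Scripts were tested on simulated data. Python 3.11.15, pandas 2.3.3 and matplotlib 3.10.9 made tables and plots.

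All 9 listed members are described, with transcripts of at least 0.5 mean CPM and at most 6 a gene, except the DGKZ transcript ENST00000454345, named because it was called. In each role list the 2 genes of smallest adjusted p are named, and AGPAT1, TAMM41 and the marker genes were named after their values were seen. The members and lists were chosen with earlier results of these data known.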

Additional observations from a re-analysis of the deposited data

How the results depend on the processing

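DGKZ was called higher under the main processing and under every alternative run on genes, with log2 fold changes from 0.71 to 1.64. The count of called members above 0 was 1 and became 2, with DGKD added, with library totals alone and with the highest transcript in place of the sum. Members called lower were 0, and 1 (DGKG) with filterByExpr and with filterByExpr without control replicate 3, a filter DGKG passed through the control libraries. With the length offset after filterByExpr its adjusted p was 0.0654, and without another library 0.0626 to 0.132. Members with a log2 fold change over 1 were 1, and 2 with library totals alone, 0 with the highest transcript, 0 with the length-trend offset, 0 with that offset after filterByExpr, and 0 to 1 with a library left out. Library totals alone moved the median of all genes to 0.53, against 0.08, and called 3643 genes higher and 356 lower, against 1292 and 1567. Relative to these medians DGKA stood at 1.16 under either scaling, and DGKZ at 1.12 with library totals alone and 1.11 in the main fit. The log2 fold change of DGKA was 1.69 with library totals alone, 1.05 with the length offset and 1.04 with that offset after filterByExpr. Member transcripts called higher were 6, and 11 with library totals alone, 1 with DESeq2 and 1 to 6 with a library left out. Transcripts called lower were 0, and 1 with no filter, ENST00000482566 of DGKG (log2 fold change -1.40, adjusted p = 0.023, edgeR). Pathway genes called higher were 11, and 17 with library totals alone, 8 with the length-trend offset and 7 to 11 with a library left out. Pathway genes called lower were 0, and 1 with RLE factors, with DESeq2 and with the replicate block, and 0 to 1 with a library left out, each time TAMM41, whose adjusted p in the main fit was 0.055. The cause of these moves was not tested. With the replicate number as a block, DGKZ rose by 1.13 on the log2 scale (adjusted p = 0.00107, edgeR) and 6 transcripts and 11 pathway genes were called higher, and apart from TAMM41 the counts of member and pathway calls were those of the main fit. Over all genes the block gave 1549 higher and 1682 lower. Deviations of same-numbered samples correlated at -0.031, 0.27 and 0.10, so the numbers were not taken as pairs. The length offsets, the highest transcript and the filterByExpr fits without a library were chosen after seeing the data. With at most 30 counts per library, DGKH, DGKQ, DGKE, DGKG and DGKI are limited by depth.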
